A study of Mus musculus with 9 samples.

Results

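Neurotransmitter receptor genes were compared between nestin-reporter cells of the dentate gyrus (DG) and of the subventricular zone (SVZ), the niches of the adult mouse brain in which new neurons are made. The genes were chosen by symbol: subunits of the ionotropic and metabotropic glutamate receptors, the GABA, glycine, serotonin, dopamine and adrenergic receptors, and the muscarinic and nicotinic acetylcholine receptors. The symbols matched 104 genes of the GENCODE M21 annotation, 3 of which are not receptor subunits. Of the 104, 54 are among the 14477 genes of the deposited table, and the other 50 are not analysed here. Because each gene of the table exceeded 1 CPM (read count scaled to the library's total) in at least 3 libraries, the 54 are the receptor genes that passed this filter, not the whole family.

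The cells came from untreated mice of the strain B6.Cg-Tg(Nes-EGFP)1Yamm in standard housing, and were sorted by green fluorescence after dissection of either tissue. There were 5 DG libraries (DG 1 to DG 5) and 4 SVZ libraries (SVZ 1 to SVZ 4), with 33627909 to 41164044 reads on the table's genes per DG library and 31126803 to 32528255 per SVZ library. Age, sex and the number of animals behind a library are not given in the labels, so the p-values below measure the spread between these libraries, which may be technical. Nestin is a filament protein of neural stem and progenitor cells that some cells of blood vessels also make. A gene with fewer reads in a sorted sample may have fewer cells that express it or less RNA per cell, and these cannot be told apart here.

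Ionotropic receptors are ion channels built from several subunits around a pore, and the mix of subunits sets how fast, how long and for which ions the channel opens. AMPA, kainate and NMDA receptors carry the excitatory current of glutamate, whereas GABA-A and glycine receptors conduct chloride. Metabotropic, monoamine and muscarinic receptors instead act through G proteins. In the adult niches, GABA reaches precursors and immature neurons before glutamatergic synapses form, and astroglia and oligodendrocyte precursors carry transmitter receptors of their own.

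Several promoter windows stand for the main patterns. Gabrg1, Gabra2 and Gabra4 are shown because they are 3 of the 4 genes of a GABA-A receptor cluster on chromosome 5 that was higher in DG as a whole, and Gria2 and Grik3 because they are an AMPA and a kainate receptor gene that differed in opposite directions. All are RefSeq sequences of GRCm38.p6, read 5′ to 3′ on the gene's strand in the 250 bases before its start site: Gabrg1 at chr5:70842618-70842867 (minus strand), Gabra2 at chr5:71095850-71096099 (minus), Gabra4 at chr5:71658364-71658558 (minus), Gria2 at chr3:80802836-80803085 (minus) and Grik3 at chr4:125490446-125490695 (plus). Gabra4 is cut to the 195 bases furthest upstream, since the others lie in an exon of Gabrb1. Capitals mark matches, on either strand, to the GC box, whose letters are GGGCGG and, read on the other strand, CCGCCC. They also mark the homeodomain core TAATTA, which reads the same on both strands, and the motif GGACAGC, or GCTGTCC when read on the other strand, which is part of the RE1 element bound by the neuronal repressor REST.
Gabrg1: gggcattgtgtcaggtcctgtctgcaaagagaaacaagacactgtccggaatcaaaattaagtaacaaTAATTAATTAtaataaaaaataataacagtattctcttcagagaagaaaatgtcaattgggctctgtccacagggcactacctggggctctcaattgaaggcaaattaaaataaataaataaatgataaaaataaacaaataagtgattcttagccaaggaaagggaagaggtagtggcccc
Gabra2: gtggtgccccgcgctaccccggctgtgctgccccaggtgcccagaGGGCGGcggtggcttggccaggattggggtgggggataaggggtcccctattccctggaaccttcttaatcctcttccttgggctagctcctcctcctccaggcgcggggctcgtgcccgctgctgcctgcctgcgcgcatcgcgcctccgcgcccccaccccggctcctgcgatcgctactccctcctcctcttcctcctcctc
Gabra4: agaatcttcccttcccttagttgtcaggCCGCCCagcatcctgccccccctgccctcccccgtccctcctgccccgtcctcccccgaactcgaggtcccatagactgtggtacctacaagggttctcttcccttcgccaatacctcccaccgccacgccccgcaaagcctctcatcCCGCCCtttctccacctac
Gria2: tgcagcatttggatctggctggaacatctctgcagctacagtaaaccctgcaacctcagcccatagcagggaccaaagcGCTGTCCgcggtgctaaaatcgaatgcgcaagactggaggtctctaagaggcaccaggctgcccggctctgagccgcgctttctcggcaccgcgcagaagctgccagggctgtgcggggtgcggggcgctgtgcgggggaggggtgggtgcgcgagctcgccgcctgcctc
Grik3: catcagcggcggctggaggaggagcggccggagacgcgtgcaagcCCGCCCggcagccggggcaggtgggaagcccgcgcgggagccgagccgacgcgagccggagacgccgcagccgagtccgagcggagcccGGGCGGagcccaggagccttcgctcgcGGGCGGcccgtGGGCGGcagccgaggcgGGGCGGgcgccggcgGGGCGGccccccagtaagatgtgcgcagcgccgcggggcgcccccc
The Gabrg1 window had 35.6% G and C and 2 overlapping TAATTA matches, while the full 250-base windows of Gabra2 and Gabra4 had 70.0% and 61.2%, with 1 and 2 GC boxes. Grik3 had 82.0% G and C and 6 GC boxes, and Gria2 had 64.8% and 1 GGACAGC match. Over all 32851 RefSeq windows of this length, 32.7% held a GC box, 4.84% a TAATTA and 5.28% a GGACAGC. Of the 54 receptor genes, 35 had a window, and 25, 2 and 5 of these held the GC box (in at least 1 window), the TAATTA (Gabrg1 and Chrnb1) and the GGACAGC (Gria2, Glrb, Drd2, Grm2 and Glra2). These counts are per gene, over 43 windows of the 35 genes, whereas the shares above are per window. The median of G and C was 62% in the windows of the receptor genes and 52.4% in all windows. The 5 genes with GGACAGC include some that were higher in DG, 1 that was lower (Drd2) and some that passed no test. A match is a stretch of letters and not a measured binding site.

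Over the whole set, the receptor genes leaned toward DG. Of the 54 genes, 32 were higher in DG, 9 were lower and 13 did not pass the test (limma with Benjamini-Hochberg adjustment over all genes, adjusted p under 0.05). Over all genes of the table, 32.9% were called higher in DG and 33.7% lower. The median log2 fold change (DG minus SVZ) was 1.57 over the 54 genes and -0.07 over all genes. In 29 receptor genes the lowest DG library exceeded the highest SVZ library (29.7% of all genes), and in 6 the highest DG library was below the lowest SVZ library (28.3% of all genes). The other 19 overlapped. Among the genes called higher in DG, Grm7, Grik4, Adra2a, Adra2b, Drd1, Drd3 and Chrm2 were under 1 CPM in every SVZ library. They passed the table's filter only through DG. Chrm4, called lower, was under 1 CPM in every DG library and passed only through SVZ. The counts are therefore partly set by the filter. Under other scalings the median of all genes moved to -0.26 (median centring) or -0.24 (quantile normalization), so values near 0 depend on the scaling.

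**Figure D1:**
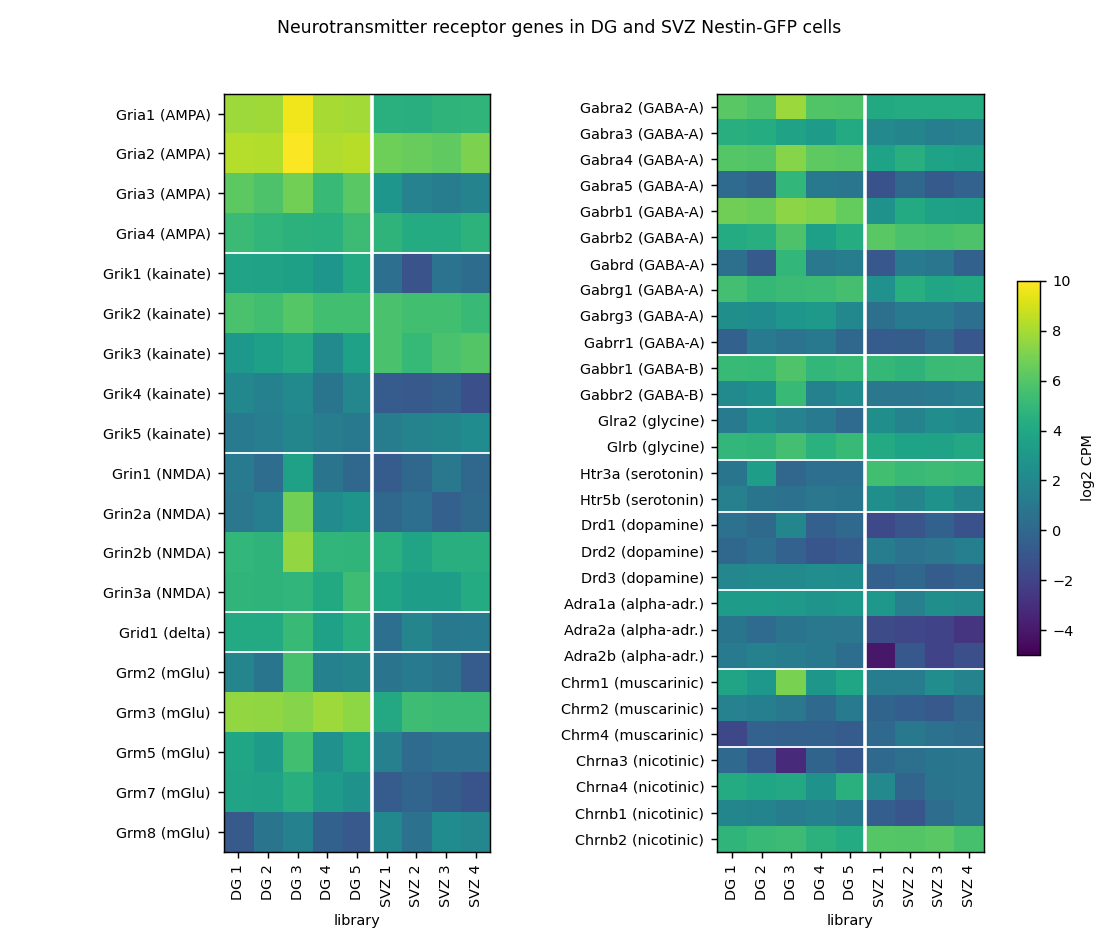
Level of 48 of the receptor genes (rows, by family) in each library (columns, DG left of SVZ), in log2 CPM by colour. Gria2, Gria1 and Grm3 are the brightest rows in DG, Htr3a is bright in the 4 SVZ libraries, and DG 3 is the brightest DG column for many rows.

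Libraries DG 3 and DG 2 stood apart from the other DG libraries. DG 3 was the highest DG library in 31 of the 54 receptor genes, against 26.7% of all genes, and it exceeded the mean of the other 4 DG libraries by more than 1 log2 unit in 23, against 5.33% of all genes. The 12 mature neuron markers summed to 978 CPM in DG 3 and 246 to 334 CPM in the other DG libraries, against 195 to 245 CPM in SVZ. In DG 2 the 10 markers of ventral GABAergic neuroblasts (Dlx, Gad and other genes) summed to 829 CPM, against 52.7 to 89.1 CPM in the other DG libraries and 4281 to 4922 CPM in SVZ. Both facts are given below beside the genes they move with. Without DG 3, 34 receptor genes were higher in DG (32.5% of all genes) and 12 were lower (33.3% of all genes).

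The libraries also differed between the regions in markers of other cell types, and none of these markers was without reads in any library. All 10 endothelial markers were higher in DG (summed level 1149.9 to 2194 CPM in DG and 9.51 to 64.7 CPM in SVZ), as were all 10 of pericytes and smooth muscle (5406 to 11212 CPM against 71.4 to 168 CPM), all 8 of fibroblasts and meninges (831 to 1578 CPM against 26.0 to 89.4 CPM) and all 5 of border macrophages (133 to 572 CPM against 2.79 to 11.3 CPM). All 10 astroglial markers were higher in DG (17086 to 25771 CPM in DG and 1859 to 3560.0 CPM in SVZ), 8 of 9 of oligodendrocyte precursors (2335 to 3739 CPM against 394 to 659 CPM), 7 of 8 of the dorsal granule cell lineage (865 to 1096 CPM against 198 to 293 CPM), 5 of 8 of mature oligodendrocytes, with 1 lower (2965 to 5479 CPM against 1454 to 2916 CPM), and 4 of 12 of mature neurons, with 1 lower. All 10 ventral GABAergic neuroblast markers were lower in DG, as were all 8 of migrating neuroblasts (5424 to 8097 CPM in DG and 19500 to 23901 CPM in SVZ), all 8 of the cell cycle (687 to 1097 CPM against 2590.0 to 2909 CPM) and all 7 of ependymal cells (12.0 to 27.0 CPM against 100.3 to 269 CPM); of the 9 microglial markers none was higher and 2 were lower (254 to 934 CPM against 211 to 1091 CPM). Nes itself was at 6.28 ± 0.42 log2 CPM in DG and 7.23 ± 0.34 in SVZ (SD, n = 5 and 4). The part of these cell types in the receptor differences was not tested.

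Of the AMPA receptor genes, 3 of 4 were higher in DG, and Gria1 and Gria2 had the highest mean levels of all ionotropic receptor genes there (58.6 and 28.7 CPM per kilobase of exon). Gria1, which encodes GluA1, had 7.81, 7.84, 9.68, 8.01 and 7.91 log2 CPM in DG 1 to DG 5, against 4.53, 4.42, 4.73 and 4.80 in SVZ 1 to SVZ 4. The groups did not overlap, and DG 3 stood above the other DG libraries. The log2 fold change was 3.63 ± 0.34 (SE, adjusted p = 3.57e-06), and 3.27 without DG 3. Gria3, which encodes GluA3, was among the receptor genes with the highest fold changes: its DG libraries held 6.21, 5.82, 6.81, 5.15 and 6.16 log2 CPM, its SVZ libraries 2.86, 1.62, 1.34 and 1.69, and the log2 fold change was 4.15 ± 0.36 (adjusted p = 1.95e-06). Gria2, whose edited GluA2 subunit keeps calcium out of the channel, had 8.32, 8.26, 9.92, 8.22 and 8.42 log2 CPM in DG and 6.67, 6.49, 6.36 and 7.07 in SVZ. It was higher in DG by 1.98 ± 0.32 (adjusted p = 0.000225). Gria4, which encodes GluA4, held 4.92 ± 0.34 log2 CPM in DG and 4.49 ± 0.28 in SVZ (SD), with overlapping libraries, and passed the test only when DG 3 (0.50, adjusted p = 0.0464) or DG 4 (0.52, adjusted p = 0.0359) was left out or libraries were weighted by quality (0.50, adjusted p = 0.0308).

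Because levels can be compared between genes only per length, the subunit mix was taken from CPM per kilobase of exon. Gria1 made up 52.2% to 63.6% of the AMPA receptor total in the DG libraries and 24.8% to 34.0% in the SVZ libraries. Gria2 held 27.8% to 29.3% in DG and 40.9% to 48.7% in SVZ, and Gria4 held 1.85% to 8.46% in DG and 23.1% to 27.9% in SVZ. Gria3 held 5.18% to 10.5% in DG and 1.83% to 4.78% in SVZ. None of the 4 shares overlapped between the regions. Per kilobase, Gria1 led in every DG library and Gria2 in every SVZ library. The order in DG depends on the exon lengths used, 6.04 kilobases for Gria1 and 15.55 for Gria2. In reads not divided by length, Gria2 exceeded Gria1 in every library of both regions (10743 and 7570 reads in DG 1).

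**Figure D2:**
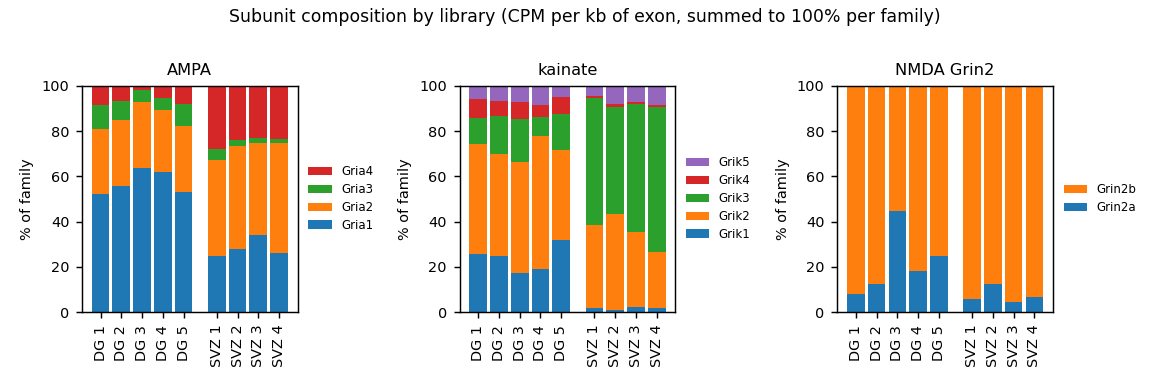
Share of each subunit gene in its family's total (vertical axis, % of CPM per kilobase of exon) in each library, DG left of SVZ. Gria1 is the widest AMPA band in the 5 DG libraries and Gria2 in the 4 SVZ libraries, Grik1 is wide only in the DG bars and Grik3 in the SVZ bars, and DG 3 departs from the other DG bars for Grin2a.

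The kainate receptor genes differed in both directions. Grik1, which encodes GluK1, had 3.76, 3.65, 3.52, 2.85 and 4.19 log2 CPM in DG, against 0.49, -1.16, 0.69 and 0.33 in SVZ, a log2 fold change of 3.51 ± 0.39 (adjusted p = 1.37e-05). Grik4, whose high-affinity subunit GluK4 works only together with other kainate subunits, averaged 1.73 ± 0.53 log2 CPM in DG and -0.80 ± 0.38 in SVZ (SD), and was higher in DG by 2.52 ± 0.33 (adjusted p = 4.31e-05). Grik3, which encodes GluK3, went the other way: it had 3.0, 3.48, 4.07, 2.12 and 3.60 log2 CPM in DG and 5.72, 5.02, 5.69 and 5.98 in SVZ. The groups did not overlap, with a log2 fold change of -2.35 ± 0.35 (adjusted p = 0.000116). Grik2 held 5.63 ± 0.24 log2 CPM in DG and 5.44 ± 0.20 in SVZ and Grik5 1.40 ± 0.29 in DG and 1.80 ± 0.41 in SVZ, and neither passed the test. Grik3 therefore made up 8.46% to 18.8% of the kainate receptor total in DG and 47.2% to 64.2% in SVZ, and Grik1 17.1% to 32.0% in DG and 0.81% to 2.32% in SVZ. Grik2 was the largest kainate share in each DG library, at 39.8% to 58.8%, and held 25.0% to 42.6% in SVZ.

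Grid1, which encodes the delta receptor GluD1, a partner of the synaptic organizers of the cerebellin family, had 4.16, 4.15, 5.12, 3.59 and 4.47 log2 CPM in DG and 0.49, 1.83, 1.06 and 1.17 in SVZ. The groups did not overlap, and it was higher in DG by 3.16 ± 0.32 (adjusted p = 7.7e-06).

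In the NMDA receptor genes Grin2a, Grin2b and Grin1, DG 3 stood far above the other DG libraries. Grin2a, whose GluN2A subunit is typical of mature synapses, had 0.97, 1.49, 6.79, 2.22 and 2.75 log2 CPM in DG, against 0.09, 0.50, -0.40 and 0.18 in SVZ. No DG library overlapped SVZ, but DG 3 stood 4.93 log2 units above the mean of the other DG libraries. The log2 fold change was 2.75 ± 0.96 (adjusted p = 0.0244), which is 6.74-fold, and 1.77 without DG 3 (adjusted p = 0.00263), which is 3.40-fold. Its call was lost without SVZ 3 (adjusted p = 0.0593). Grin2b, whose GluN2B subunit dominates early in development, had 4.93, 4.75, 7.57, 4.85 and 4.83 log2 CPM in DG and 4.53, 3.74, 4.48 and 4.43 in SVZ. It did not pass the test with all libraries (1.09 ± 0.52, adjusted p = 0.0817) and did so without DG 3, at the smaller value of 0.55 (adjusted p = 0.0198). Grin1, the obligatory subunit, had 1.12, 0.36, 3.59, 0.75 and 0.07 log2 CPM in DG and -0.61, 0.08, 1.00 and 0.02 in SVZ, without passing the test (1.05 ± 0.65, adjusted p = 0.166); its exons share 1307 bases with the antisense gene Grin1os. Grin3a, a modulatory subunit that lowers calcium entry, was the NMDA gene in which DG 3 did not stand apart: it held 4.78 ± 0.43 log2 CPM in DG and 3.74 ± 0.39 in SVZ (SD) and was higher in DG by 1.04 ± 0.24 (adjusted p = 0.00279). Of the Grin2a and Grin2b total per kilobase, Grin2a made up 44.6% in DG 3, 8.06% to 24.6% in the other DG libraries and 4.34% to 12.6% in SVZ.

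Among the metabotropic glutamate receptors, 3 were higher in DG and 1 was lower. Grm3, the group II receptor known from astrocytes, had 60.9 ± 8.78 CPM per kilobase in DG and 10.8 ± 3.67 in SVZ (SD). The mean of Gria1 in DG was 58.6 ± 42.9, but the 2 genes were not alike within libraries. Per kilobase, Grm3 exceeded Gria1 in every DG library except DG 3, where Gria1 was higher. The level of Grm3 was 7.58, 7.49, 7.28, 7.83 and 7.44 log2 CPM in DG, against 4.03, 5.35, 5.22 and 5.22 in SVZ, and the log2 fold change was 2.57 ± 0.24 (adjusted p = 4.11e-06). DG 3 was the lowest DG library here. Grm7, a presynaptic group III receptor, had a fold change near that of Gria3: its DG libraries held 3.74, 3.67, 4.47, 3.24 and 2.71 log2 CPM and its SVZ libraries -0.61, -0.11, -0.59 and -1.12, a log2 fold change of 4.17 ± 0.34 (adjusted p = 1.44e-06). These were the highest values of the 54 genes, they differed by less than their standard errors, and without DG 3 they were 3.95 for Grm7 and 3.96 for Gria3. Grm5, a group I receptor coupled to phospholipase C, held 3.84, 3.20, 5.47, 2.58 and 3.74 log2 CPM in DG and 1.54, 0.25, 0.63 and 0.59 in SVZ, and was higher by 3.01 ± 0.50 (adjusted p = 0.000273). Grm8, of group III like Grm7, was lower in DG (log2 fold change -1.64 ± 0.54, adjusted p = 0.0188), with -0.83, 0.77, 1.60, -0.33 and -0.83 log2 CPM in DG and 1.99, 0.65, 2.30 and 1.93 in SVZ. The groups overlapped, and the call was lost without SVZ 3 (adjusted p = 0.0567).

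Grm2, a group II autoreceptor that adult granule cells express, was far higher in DG 3 than in the other libraries. It had 5.65 log2 CPM in DG 3, 0.83 to 1.81 in the other DG libraries and -0.64 to 1.10 in SVZ. It did not pass the test with all libraries (adjusted p = 0.0716) or without DG 3 (1.00, adjusted p = 0.0501). It passed without DG 2 (2.20, adjusted p = 0.0392) and without DG 2 and DG 3 together (1.22, adjusted p = 0.028).

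**Figure D3:**
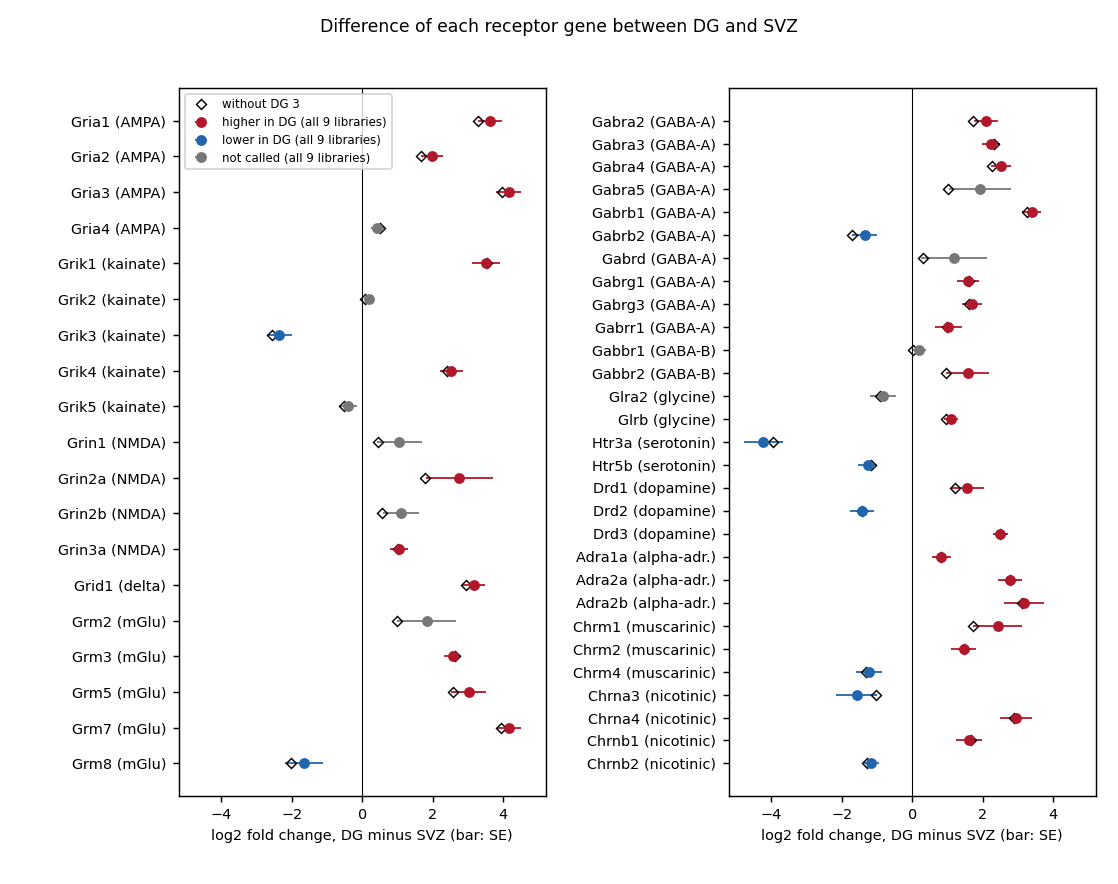
Log2 fold change (DG minus SVZ) of 48 receptor genes with its standard error (filled points, by call), and the same value without DG 3 (open diamonds). Grm7, Gria3 and Gria1 lie furthest to the right and Htr3a furthest to the left, and the diamonds of Grin2a, Gabra5, Gabrd and Grm2 lie furthest left of their points.

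Of the 13 GABA-A receptor genes in the table, 8 were higher in DG and 1 was lower. The gene cluster on chromosome 5 (Gabrg1, Gabra2, Gabra4 and Gabrb1, mm10 positions 70751047 to 72149037) was higher in DG in all 4 genes, and no DG library of any of them overlapped SVZ. Gabrb1, which encodes the beta1 subunit, had 6.75, 6.61, 7.37, 7.16 and 6.48 log2 CPM in DG and 2.68, 4.16, 3.59 and 3.52 in SVZ, a log2 fold change of 3.38 ± 0.27 (adjusted p = 1.31e-06). Gabra4, whose alpha4 subunit is known from extrasynaptic receptors of granule cells, had 6.07, 5.91, 7.30, 6.31 and 6.18 log2 CPM in DG, against 3.68, 4.44, 3.72 and 3.53 in SVZ (2.51 ± 0.28, adjusted p = 1.35e-05). Gabra2, a synaptic alpha subunit of young and adult neurons, had 6.14, 5.83, 7.72, 5.91 and 5.88 log2 CPM in DG and 4.11, 4.25, 4.24 and 4.23 in SVZ (2.09 ± 0.34, adjusted p = 0.000222). Gabrg1, which encodes a gamma subunit known from glia, held 5.55, 4.97, 5.24, 5.28 and 5.56 log2 CPM in DG and 2.57, 4.42, 3.86 and 4.08 in SVZ (1.58 ± 0.31, adjusted p = 0.000962), and DG 3 did not stand out in it. Gabra4 and Gabrb1 lie head to head, with their annotated starts 195 bases apart and transcripts that overlap: 46 exon bases are shared, so a few reads of one may be counted for the other. The window before the RefSeq start of Gabrb1 is mostly exon (197 of 250 bases) and is not shown above.

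Outside this cluster the calls were mixed: Gabrb2 on chromosome 11 was lower in DG, and on chromosome 7 Gabrg3 was higher while Gabra5 did not pass the test. Gabrb2, which encodes the beta2 subunit, had 4.22, 4.44, 5.82, 3.48 and 4.31 log2 CPM in DG and 6.14, 5.67, 5.61 and 5.81 in SVZ, a log2 fold change of -1.35 ± 0.36 (adjusted p = 0.00649). Its direction was opposite to that of Gabrb1, and only DG 3 overlapped SVZ. Gabrg3 was higher in DG by 1.69 ± 0.27 (adjusted p = 0.000218; 2.53 ± 0.43 log2 CPM in DG and 0.83 ± 0.37 in SVZ, SD). Gabra5, whose alpha5 subunit is known from hippocampal pyramidal neurons, held 0.25, -0.21, 4.95, 1.04 and 0.89 log2 CPM in DG and -1.20, 0.08, -0.74 and -0.27 in SVZ. It did not pass the test with all libraries (1.91 ± 0.88, adjusted p = 0.0732) and did without DG 3 (1.02, adjusted p = 0.0424) or without DG 2 (2.31, adjusted p = 0.0395).

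**Figure D4:**
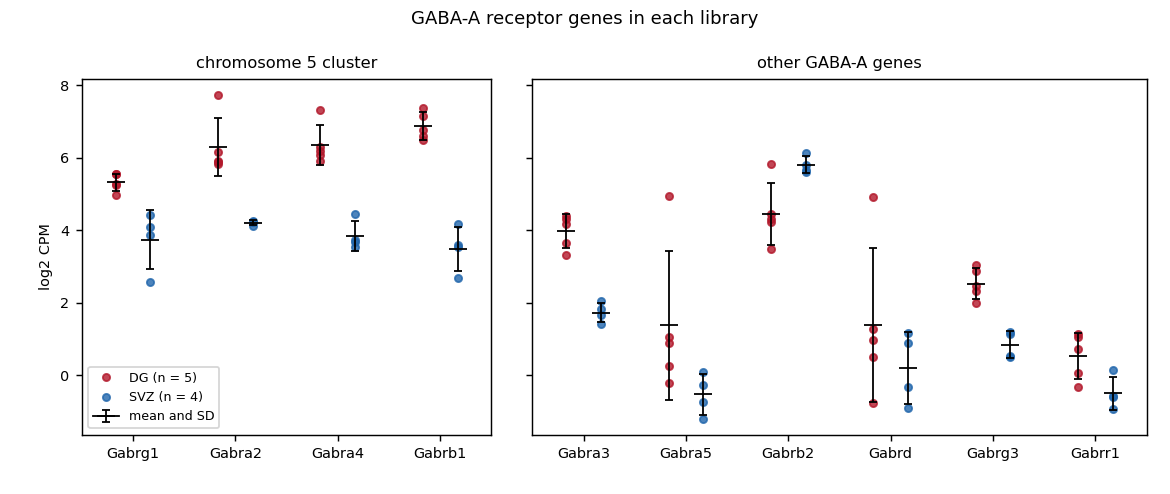
Level (log2 CPM) of 10 GABA-A receptor genes in each library, with the chromosome 5 cluster on the left in chromosomal order, DG points left of SVZ points, and mean and SD. The DG points lie above the SVZ points in all 4 genes of the cluster, and the single high DG point in Gabra2, Gabra4, Gabra5, Gabrb2 and Gabrd is DG 3.

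Gabra3 was higher in DG by 2.24 ± 0.25 (adjusted p = 1.36e-05; 3.97 ± 0.47 log2 CPM in DG and 1.73 ± 0.26 in SVZ, SD). Gabrd, whose delta subunit forms extrasynaptic receptors with alpha4, had 4.91 log2 CPM in DG 3, -0.77 to 1.28 in the other DG libraries and -0.91 to 1.17 in SVZ, and missed the threshold (adjusted p = 0.283 with and 0.652 without DG 3). Gabrr1, a rho subunit, was called higher in DG at a low level (1.03 ± 0.38, adjusted p = 0.0317; 0.53 ± 0.63 log2 CPM in DG and -0.49 ± 0.46 in SVZ), but the groups overlapped and the call was lost when any of DG 2, DG 3, DG 4, SVZ 1, SVZ 2 or SVZ 4 was left out (adjusted p = 0.0725, 0.058, 0.076, 0.0651, 0.0638 and 0.08).

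The metabotropic GABA-B receptor is a pair of the proteins of Gabbr1 and Gabbr2, the first of which binds GABA and the second the G protein. Gabbr1 held 5.24 ± 0.37 log2 CPM in DG and 5.05 ± 0.25 in SVZ (SD), a difference that missed the threshold (0.19 ± 0.20, adjusted p = 0.403). Gabbr2 had 2.13, 2.51, 5.18, 1.58 and 2.23 log2 CPM in DG and 0.93, 0.97, 1.21 and 1.53 in SVZ. It was 2.96-fold higher in DG (1.57 ± 0.60, adjusted p = 0.0374) and 1.94-fold without DG 3 (adjusted p = 0.00792), and the call was lost without DG 2 (adjusted p = 0.0512) or any 1 SVZ library (adjusted p = 0.0501 to 0.0772). Per kilobase, Gabbr1 exceeded Gabbr2, with means of 5.01 and 1.61 CPM per kilobase in DG and 4.31 and 0.34 in SVZ.

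Of the glycine receptor genes, Glrb, whose beta subunit ties the receptor to the scaffold protein gephyrin, was higher in DG, with 4.93, 4.80, 5.49, 4.55 and 5.09 log2 CPM in DG and 4.18, 3.67, 3.63 and 4.08 in SVZ (1.09 ± 0.20, adjusted p = 0.000525). Glra2, the alpha subunit of the immature brain, held 1.16, 2.31, 1.67, 1.15 and 0.23 log2 CPM in DG and 2.47, 1.68, 2.35 and 2.0 in SVZ. It did not pass the test with all libraries (-0.82 ± 0.37, adjusted p = 0.0713), but it was lower in DG without DG 2, the highest DG library (-1.07, adjusted p = 0.0156), and, with all libraries, under median centring (-1.01, adjusted p = 0.0226) or quantile normalization (-1.32, adjusted p = 0.00687).

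Htr3a, which encodes the ion channel among the serotonin receptors and marks interneurons of the caudal ganglionic eminence lineage, had the largest decrease. Its DG libraries held 0.83, 3.34, -0.05, 0.49 and 0.47 log2 CPM and its SVZ libraries 5.45, 5.12, 5.27 and 5.13, a log2 fold change of -4.23 ± 0.56 (adjusted p = 5.19e-05). In SVZ it was the most abundant of the 54 genes per kilobase, with 1.49 ± 1.88 CPM per kilobase in DG and 18.2 ± 1.96 in SVZ (SD). The high DG library was DG 2, in which ventral GABAergic neuroblast markers were also high; without it the log2 fold change was -4.81 (adjusted p = 1.21e-07). Htr5b, a G protein-coupled serotonin receptor, was lower in DG too, at 0.94 ± 0.35 log2 CPM in DG and 2.21 ± 0.41 in SVZ (SD; -1.27 ± 0.27, adjusted p = 0.00143).

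The dopamine receptor genes were low and split. Drd3, a D2-class receptor, had 1.95, 2.20, 2.21, 2.35 and 2.29 log2 CPM in DG and -0.41, 0.04, -0.59 and -0.22 in SVZ, and was higher in DG by 2.50 ± 0.22 (adjusted p = 2.34e-06). Its DG libraries spread by an SD of only 0.15. Counted in reads (20 to 31 per SVZ library), Drd3 was under 1 CPM in every SVZ library and passed the table's filter only through DG. Drd2, of the same class, was lower in DG, with 0.06, 0.45, -0.28, -1.01 and -0.65 log2 CPM in DG and 1.36, 0.71, 0.95 and 1.48 in SVZ (-1.41 ± 0.34, adjusted p = 0.00344). Drd1, which raises cyclic AMP, held 0.49 ± 0.89 log2 CPM in DG and -1.08 ± 0.56 in SVZ (SD) and was higher in DG by 1.56 ± 0.47 (adjusted p = 0.0125), with overlapping libraries.

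All 3 alpha-adrenergic receptor genes in the table, of 6 annotated, were higher in DG. Adra2a and Adra2b were under 1 CPM in every SVZ library, so they passed the table's filter only through DG. The count of 3 is therefore partly set by the filter. Adra2b, an inhibitory receptor known from vascular smooth muscle, had 1.14, 1.60, 1.32, 1.04 and 0.42 log2 CPM in DG and -4.05, -0.88, -2.0 and -1.33 in SVZ. SVZ 1 held 1 read of it. The log2 fold change was 3.17 ± 0.57 (adjusted p = 0.000525), or 9.00-fold on this scale, and 5.69-fold without SVZ 1. Adra2a, the main inhibitory autoreceptor of noradrenaline neurons, held 0.75 ± 0.31 log2 CPM in DG and -2.02 ± 0.50 in SVZ (SD; 2.77 ± 0.33, adjusted p = 2.47e-05). Adra1a was higher by 0.82 ± 0.27 (adjusted p = 0.0186; 3.09 ± 0.21 log2 CPM in DG and 2.27 ± 0.62 in SVZ), and lost its call without SVZ 2 (0.57, adjusted p = 0.0517). Endothelial, pericyte and smooth muscle markers were higher in DG in the same libraries, and their part in these receptor levels was not tested.

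Of the muscarinic receptor genes, Chrm1 and Chrm2 were higher in DG and Chrm4 was lower. Chrm1, a receptor of excitatory forebrain neurons, had 3.74, 3.01, 6.95, 2.97 and 3.84 log2 CPM in DG and 1.34, 1.32, 2.34 and 1.69 in SVZ. It was 5.38-fold higher in DG (2.43 ± 0.70, adjusted p = 0.00937) and 3.28-fold without DG 3 (adjusted p = 0.000567). Chrm2, an inhibitory receptor, averaged 1.08 ± 0.60 log2 CPM in DG and -0.37 ± 0.36 in SVZ (SD; 1.45 ± 0.35, adjusted p = 0.00319). Chrm4, inhibitory as well, had -1.75, -0.31, -0.38, -0.33 and -0.65 log2 CPM in DG and 0.13, 1.08, 0.60 and 0.37 in SVZ (-1.23 ± 0.37, adjusted p = 0.0122).

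The nicotinic subunit genes also went both ways. Chrna4, the alpha4 subunit, had 4.23, 3.85, 4.03, 2.62 and 4.52 log2 CPM in DG and 2.05, -0.11, 0.80 and 0.91 in SVZ (2.94 ± 0.45, adjusted p = 0.000156). Chrnb2, the subunit with which alpha4 forms the common receptor of the brain, was lower in DG, with 4.81, 5.10, 5.27, 4.62 and 4.21 log2 CPM in DG and 6.07, 5.96, 6.18 and 5.63 in SVZ (-1.16 ± 0.21, adjusted p = 0.000444). The Chrnb2 value is uncertain, since its exons share 1365 bases with Adar on the opposite strand and the libraries keep no strand. Chrnb1, the beta subunit of muscle, held 1.55 ± 0.29 log2 CPM in DG and -0.07 ± 0.84 in SVZ (SD; 1.62 ± 0.37, adjusted p = 0.0025). Chrna3, a subunit of ganglionic receptors, was lower in DG (-1.58 ± 0.59, adjusted p = 0.0332), at 0.14, -0.84, -3.17, -0.18 and -0.89 log2 CPM in DG and 0.13, 0.53, 0.83 and 0.88 in SVZ. DG 3 held 3 reads of it, and the call was lost without DG 5, SVZ 2, SVZ 3 or SVZ 4 (adjusted p = 0.0502, 0.0593, 0.0737 and 0.075).

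DG 3 stood far above the mean of the other DG libraries in Grin2a (4.93 log2 units), Gabra5 (4.45), Gabrd (4.40), Grm2 (4.15), Chrm1 (3.57), Gabbr2 (3.07), Grin1 (3.02), Grin2b (2.73) and Grm5 (2.14). Syt1, a synaptic vesicle protein, and Slc17a7, the vesicular glutamate transporter of forebrain excitatory neurons, were at 8.09 and 5.74 log2 CPM in DG 3. In the other DG libraries Syt1 held 4.25 to 4.43 log2 CPM, against 4.51 to 5.28 in SVZ, and was lower in DG when DG 3 was left out (-0.55, adjusted p = 0.0145; 0.21, adjusted p = 0.803, with it). Slc17a7 held 0.54 to 1.95 log2 CPM in the other DG libraries and -1.30 to 0.02 in SVZ. Grm3, Gabrg1, Grik1, Drd3 and Adra2a did not share the excess: DG 3 lay within 0.31 log2 units of the mean of the other DG libraries in each.

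**Figure D5:**
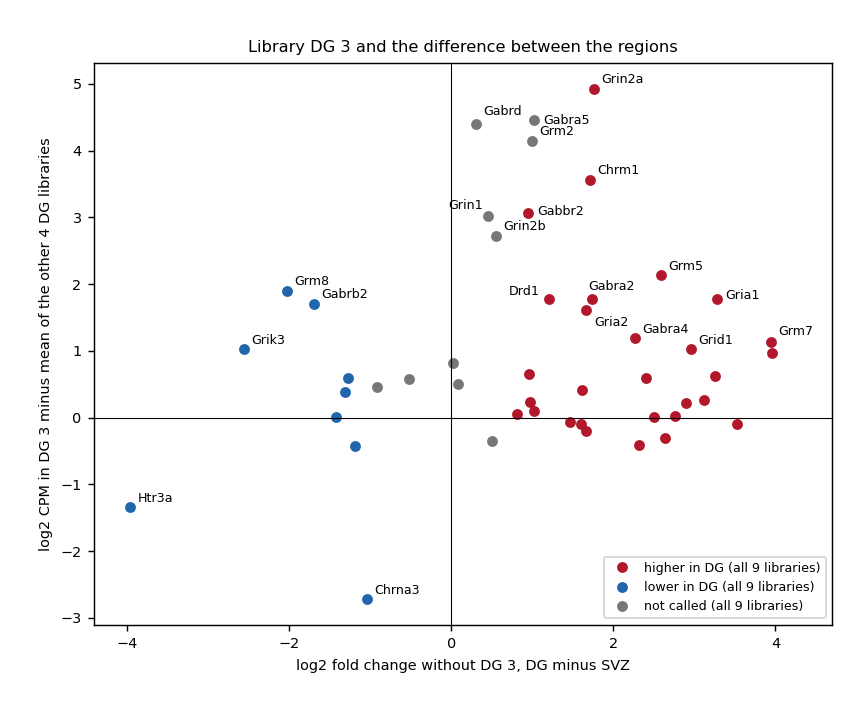
Log2 CPM in DG 3 minus the mean of the other 4 DG libraries (vertical axis) against the log2 fold change between DG and SVZ without DG 3 (horizontal axis), 1 point for each of 48 receptor genes, coloured by its call over all 9 libraries. Grin2a, Gabrd, Gabra5 and Grm2 lie between 4.15 and 4.93, with horizontal values of 0.30 to 1.77, and Chrna3 lies lowest, at -2.72.

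The partners of these receptors were counted from lists of 106 measured genes. Of these, 39 were higher in DG, 23 were lower and 44 did not pass the test, with a median log2 fold change of 0.26. Over all genes 32.9% were higher and 33.7% lower. The share of higher partner genes was therefore near the background, and the share of lower ones was under it. Each list count below is to be read against these shares over all genes. Of 24 measured auxiliary, assembly and clustering proteins of AMPA receptors, 12 were higher and 4 were lower (median 0.79). The endoplasmic reticulum protein gene Porcn was higher by 2.36 ± 0.13 (adjusted p = 7.43e-08; 6.06 ± 0.21 log2 CPM in DG and 3.70 ± 0.11 in SVZ), as was Cnih3, which carries AMPA receptors to the surface, by 3.85 ± 0.31 (adjusted p = 1.28e-06). Cacng5, a transmembrane AMPA receptor regulator, was lower (-1.58 ± 0.13, adjusted p = 1.69e-06; 6.40 ± 0.26 log2 CPM in DG and 7.98 ± 0.13 in SVZ), and so was the scaffold gene Grip1 (-3.26 ± 0.39, adjusted p = 2.39e-05). Of 4 kainate and delta receptor partners, C1ql2, a secreted organizer of kainate receptors at mossy fibre synapses, was higher (3.98 ± 0.62, adjusted p = 0.000184), and Neto2, a kainate receptor auxiliary subunit, was lower (-1.41 ± 0.26, adjusted p = 0.000561), as was Gopc.

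Of 20 postsynaptic scaffold genes of glutamate synapses, 3 were higher in DG and 7 were lower (median -0.25), against 32.9% higher and 33.7% lower over all genes. The share of lower genes was therefore near the background, and the share of higher ones was under it. Dlgap1 (1.11 ± 0.13, adjusted p = 2.41e-05) and Tanc1 (2.82 ± 0.34, adjusted p = 2.42e-05) were higher, whereas Dlgap4 (-1.02 ± 0.13, adjusted p = 4.43e-05) and Dlgap3 (-2.89 ± 0.39, adjusted p = 6.25e-05) were lower. Of 16 scaffold and assembly genes of GABA-A and glycine receptors, 4 were higher and 2 were lower (median 0.17): Gphn, which encodes gephyrin, was higher by 0.66 ± 0.11 (adjusted p = 0.00027), Trak1 by 0.70 ± 0.09 (adjusted p = 5.09e-05), and Lhfpl4, which brings GABA-A receptors to inhibitory synapses, was lower (-0.97 ± 0.20, adjusted p = 0.00133). Of 4 GABA-B receptor partners, 3 were higher, among them Ajap1 (3.74 ± 0.41, adjusted p = 1.24e-05) and the auxiliary subunit gene Kctd12b (1.33 ± 0.16, adjusted p = 3.24e-05).

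Of 7 chaperones and Ly6-family modulators of nicotinic receptors, 5 were higher in DG and none was lower (median 1.47), led by Ly6e (2.45 ± 0.20, adjusted p = 1.42e-06) and Lynx1, a brake on nicotinic receptors (2.41 ± 0.36, adjusted p = 0.000138). Downstream of the G protein-coupled receptors, 2 of 12 G protein alpha subunits were higher and 6 were lower (median -0.53), with Gna14 (-4.76 ± 0.67, adjusted p = 8.78e-05) and Gnai1 (-1.09 ± 0.18, adjusted p = 0.000323) lower and Gna11 (0.42 ± 0.10, adjusted p = 0.00393) and Gnaz (0.76 ± 0.21, adjusted p = 0.00733) higher. Gna14 had 10, 9, 0, 3 and 13 reads in DG and 102 to 164 in SVZ, and its log2 fold change was -4.15 (adjusted p = 1.18e-05) without DG 3, the library at 0. Of 12 adenylyl cyclases and phospholipases C beta, 7 were higher and none was lower (median 1.15). Adcy4, a cyclase known from endothelium, was higher by 5.79 ± 0.52 (adjusted p = 2.76e-06; 4.10 ± 0.40 log2 CPM in DG and -1.69 ± 1.32 in SVZ; 6.45 without SVZ 1), and Plcb1, which acts downstream of Grm5 and Chrm1, by 1.87 ± 0.17 (adjusted p = 3.24e-06). Of 7 arrestins and receptor kinases, Arrb1 (0.75 ± 0.12, adjusted p = 0.000155) and Grk5 (1.46 ± 0.24, adjusted p = 0.00028) were higher and Grk6 and Arrb2 were lower (median 0.04), the last of which lost its call without DG 2, DG 4, DG 5, SVZ 2 or SVZ 3 (adjusted p = 0.064 to 0.14). Camk2a and Cacng4 stand both in a partner list and in a marker list.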

How the data were processed

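RNA was measured in 9 libraries of sorted cells (5 DG and 4 SVZ, grouped by the labels' tissue). Per the labels' protocols, cDNA was primed with poly-dT, template-switched, amplified by PCR and sheared, in a kit that keeps no strand and tags no molecules. STAR, edgeR and mm10 are named, per the submitters' processing notes; their versions, the counter and the annotation release were not given in these sources. The deposited values are log2 CPM, inferred from the values to carry a prior count of 1 read scaled to the library: reads recovered by this formula were whole for 100% of values (tolerance 0.001). Fold changes of genes with few reads are understated on this scale. At the depths found, 1 read was worth 0.0243 to 0.0321 CPM, and counting error only is covered by depth.

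All 14477 genes were tested with limma 3.58.1 (R 4.3.3) on the deposited values, with a mean-variance trend, DG minus SVZ and no further filter, after a check on simulated data. Every adjusted p is from that model, with Benjamini-Hochberg adjustment over all genes and a threshold of 0.05. GENCODE M21 gave symbols for 14428 genes and exon lengths, and RefSeq gave promoter sequences. Of the 54 receptor genes, 49 had at least 10 reads in every library. Libraries of 1 group were compared for duplicates, and no pair was within sampling noise. Same-numbered DG and SVZ libraries did not deviate together, so the replicate number was not used as a block. The planned design, the tests and the rule for named genes were kept: up to 2 genes per direction and family with the smallest adjusted p, a fixed list of main subunits, and genes whose call 1 library decides; Gabra3, Gabrd, Gabrg3, Grik2, Grik5, Syt1 and Slc17a7 were added after their values were seen. Some of the 54 genes enter the counts but are not reported here by name. The receptor genes and all lists were chosen with earlier results of these data known. Alternatives covered scaling, trend, robust fitting, weights, prior counts, filters, a block and left-out libraries; leaving out DG 2 and DG 3 together was added after seeing the data.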

Additional observations from a re-analysis of the deposited data

Results flagged for a closer look

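In each gene the highest and lowest library of either group was compared with its neighbour by Dixon's ratio. Of 96 groups (48 genes in DG and SVZ), 15 held a library far from the others, and chance flags about 1 in 20. In 10 of them the library was DG 3, as the highest of the DG group: Gria1 (9.68 log2 CPM), Gria2 (9.92), Gabra2 (7.72), Gabra4 (7.30), Gabra5 (4.95), Gabbr1 (5.89), Gabbr2 (5.18), Grin2b (7.57), Grm2 (5.65) and Chrm1 (6.95). These genes span AMPA, NMDA, metabotropic glutamate, GABA and muscarinic receptors, and mature neuron markers were also highest in DG 3.

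Htr3a was highest in DG 2 (3.34 log2 CPM), the DG library with the most reads of ventral GABAergic neuroblast markers, and Chrm4 was lowest in DG 1 (-1.75). In SVZ, Gabra2 (4.11) and Grm3 (4.03) were lowest in SVZ 1 and Grin2b (3.74) in SVZ 2. Without the libraries named for them, Gria1, Gria2, Gabra2, Gabra4, Gabbr2, Chrm1, Grm3, Chrm4 and Htr3a kept their direction and call.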

How the results depend on the processing

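With all libraries 32 receptor genes were higher and 9 lower in DG (32.9% and 33.7% of all genes). The shares of all genes were also taken without DG 3 (32.5% and 33.3%) but not under the other settings, so the counts below have no background beside them. Among genes averaging 1 log2 CPM or more, 5 were lower. Among those averaging 3 log2 CPM or more 11 were higher and 3 lower, since fewer genes were then tested. Leaving out 1 library at a time gave 29 to 34 higher and 7 to 12 lower. Median centring gave 31 and 13, quantile normalization 27 and 12, library weights 32 and 11, and leaving out DG 2 and DG 3 together 33 and 12. With the replicate block, 33 were higher and 7 lower; the numbers in the titles were not shown to pair the samples (correlations of deviations -0.05, -0.17, 0.01 and -0.11). With it Grin2a, Grm8 and Chrna3 missed the threshold (adjusted p = 0.0514, 0.0525 and 0.0691), and Grin1 and Grin2b passed it (adjusted p = 0.0352 and 0.046). Of 1032 values of a gene under a setting, 971 kept the call or the lack of one, 32 lost the call and 29 gained it. None with a call in either fit changed sign, and changes of sign without a call were not counted. In 37 genes the call, or the lack of one, was the same under every setting run. The calls of 14 genes changed when 1 library was left out, 11 of them named above with those libraries. Under other scaling, Grin2a, Gabbr2, Adra1a, Drd1 and Gabrr1 lost theirs under quantile normalization (adjusted p = 0.0514, 0.11, 0.231, 0.225 and 0.576), and Grik5 gained one (-0.90, adjusted p = 0.00446); the cause was not tested. Of 242 mean subunit shares under another setting 22 moved by at least the SD of their group, all of them when reads were not divided by exon length. Leaving out 1 library cannot move a mean by the SD of its group, so the shares under those settings say nothing on stability. Of 910 counts for a family or list 81 moved by more than 1.5 times. Depth limits the genes near 1 CPM most, such as Adra2b, Chrna3 and Gabrr1.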
